A study of Mus musculus with 4 samples.

Results

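Primary astrocyte cultures grown from the subventricular zone (SVZ) were compared with cultures grown from the ventral mesencephalon (VM) of the same outbred mouse stock, CD-1, gene by gene. Both cultures came from pups at postnatal day 3, with no treatment named in the labels, and belong to a set of 4 regional cultures that also holds the olfactory bulb (OB) and the hippocampus (HIP). Per the labels' protocols the dissected tissue was plated in medium with 10% serum, shaken at 200 rpm for more than 2 hours to enrich astroglia, replated and kept in the same medium as monolayers until RNA was extracted. The design text speaks of 4 littermate pups and then of 3 whose tissue was pooled, so each array stands for 1 pool of animals and which number holds is not settled. The members of the comparison are the 12393 genes that the array names through at least 1 of 20380 probe sets with a single gene symbol, out of 22690 probe sets, and each gene is read from its probe set of highest mean signal. Each region has a single array, so the differences carry no test, p-value or replicate error, and the number of arrays limits the precision.

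Astrocytes supply neurons with metabolites and lipids, clear glutamate and potassium from the extracellular space, secrete matrix and growth factors, and respond to injury and infection with cytokines and interferon-induced genes. The SVZ lines the lateral ventricle of the forebrain and holds astrocyte-like neural stem cells, which keep producing olfactory neurons after birth. The VM is the floor of the midbrain, patterned by the floor plate and the midbrain-hindbrain boundary, and holds the dopamine neurons of the substantia nigra and ventral tegmental area.

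The values are linear signal intensities as deposited. Their 2% trimmed means were between 400.1 and 400.2 on the 4 arrays, and no further scaling was applied. Signals under the median of the whole table, 122.1, were raised to that floor before taking log2, since the table gives no detection calls. Where 1 culture sat at the floor, the fold is only a minimum and is written "at least". The log2 differences of other probe sets are minimums in the same way where 1 culture was under the floor. All 14 hybridisation control probe sets read higher on the SVZ array, by a median of 1.16-fold, while the 3 prime to 5 prime signal ratio of Gapdh was 0.91 in SVZ and 0.88 in VM. Probe sets of 1 gene gave the only measure of error within the table: over 2184 genes whose brightest pair of probe sets was above the floor on both arrays, a single probe set's log2 difference scattered with a median-based SD of 0.18. That figure holds the error of measuring 1 sample, with nothing in it of how cultures vary. The label is borne out in part: Gfap and Aldh1l1 were above the floor in both cultures, whereas Slc1a2, the main glutamate transporter of mature astrocytes, was below it in both (82.9 in SVZ, 37.9 in VM), as was S100b (33.6 in SVZ, 73 in VM).

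Of the 12393 genes, 7336 were above the floor in at least 1 of the 2 cultures and 5057 were below it in both. Among the compared genes 435 were at least 2-fold higher in SVZ (5.93% of those compared) and 397 were at least 2-fold lower (5.41%). Of these, 321 higher and 258 lower genes were above the floor in both cultures, and the folds of the rest are minimums. The larger differences lay on the low side: 16 genes were at least 8-fold higher and 52 at least 8-fold lower in SVZ. Most genes were close, with 5164 (70.4%) less than 0.5 apart on the log2 scale and a median difference of 0.03. The 2-fold limit cuts through a continuous distribution: 146 higher genes lay past it by less than 0.25 on the log2 scale and 229 missed it by less than that, against 119 and 213 on the low side. In such RNA from whole cultures, fewer cells of a type and less RNA per cell cannot be told apart.

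**Figure D1:**
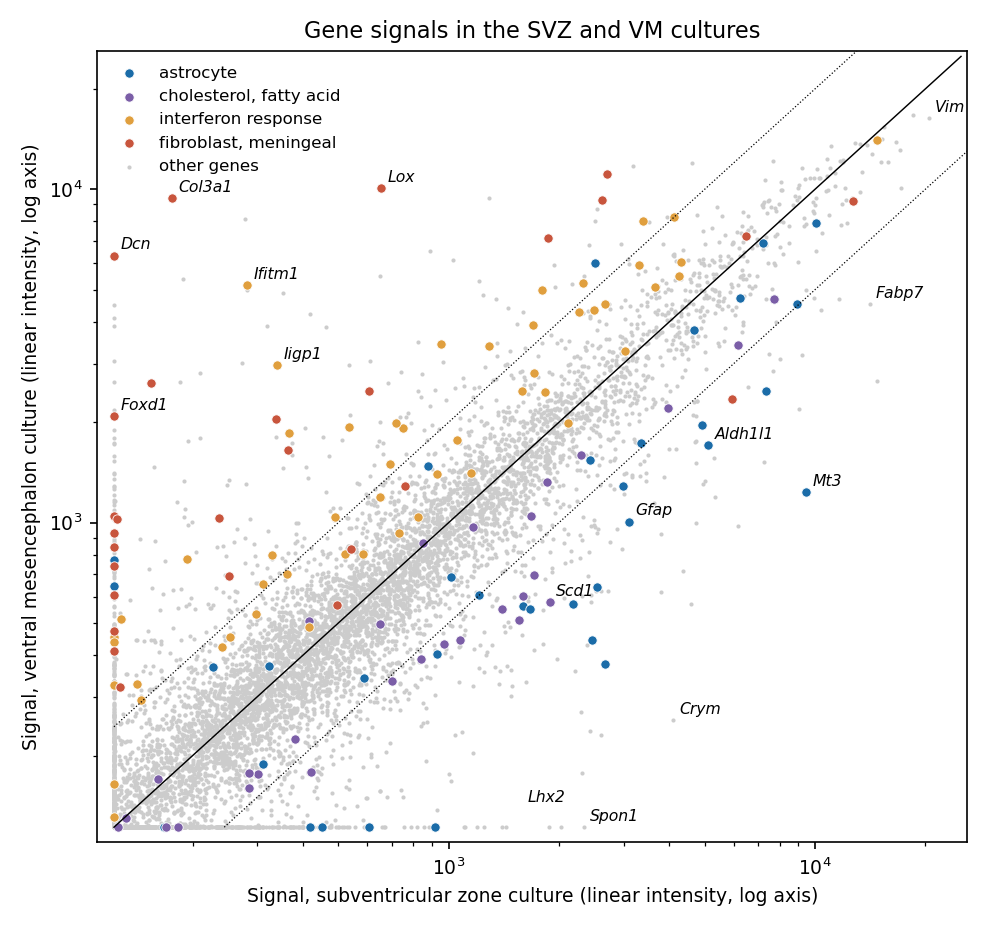
Signal of each compared gene in the SVZ culture (horizontal) against the VM culture (vertical), both on log axes with values under the floor drawn at 122.1; the solid line marks equal signals, the dotted lines 2-fold differences, and colours mark 4 gene lists. Fibroblast and interferon genes lie mostly above the diagonal, that is lower in SVZ, and astrocyte and cholesterol genes mostly below it.

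The genes with the widest measured excess in SVZ were of mixed function. C1ql3, a secreted C1q-related protein of synapses, gave 2594 in SVZ and 133 in VM (19.4-fold higher). Its other probe sets differed by at least 2.66 and 2.75 on the log2 scale. Crym, a thyroid hormone-binding protein, gave 4089 in SVZ and 255 in VM (16-fold higher). Rcan2, a regulator of calcineurin, gave 2311 in SVZ and 177 in VM (13-fold higher). These 3 genes read above the floor in both cultures, so their folds are measured on both sides. Nrcam, a neuronal and glial adhesion molecule, gave 2428 in SVZ and 236 in VM (10.3-fold higher). Aldh1a1, which makes retinoic acid, gave 2300.4 in SVZ and 269.9 in VM (8.52-fold higher). Mt3, the metallothionein enriched in brain, gave 9434 in SVZ and 1237 in VM (7.63-fold higher). The same range, from 2.59 to 3.50 on the log2 scale, held the cytoskeletal regulator Limch1, the reticulon Rtn1, Bmerb1, the proteoglycan neurocan (Ncan), the oligodendrocyte-lineage factor Olig1, the glial differentiation factor meteorin (Metrn) and the receptor phosphatase Ptprz1. The other probe sets of Metrn (172.8 in SVZ, 35.5 in VM) and Ncan (217.5 in SVZ, 49.8 in VM) were under the floor in VM. Their differences of 0.50 and 0.83 are minimums.

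Further genes were read above the floor in SVZ alone. Spon1, the floor plate adhesion protein F-spondin, gave 2342 in SVZ and 22.9 in VM (at least 19.2-fold higher). Lhx2, a homeobox factor of the forebrain, gave 2027 in SVZ and 22.2 in VM (at least 16.6-fold higher). St8sia2, an enzyme that adds polysialic acid to the adhesion molecule NCAM, gave 1872 in SVZ and 17.2 in VM (at least 15.3-fold higher). In each the VM signal was far under the floor. Scg3, a granin of secretory granules, gave 1438 in SVZ and 93.9 in VM (at least 11.8-fold higher). Gpm6a, a neuronal membrane glycoprotein, gave 1397 in SVZ and 84.4 in VM (at least 11.4-fold higher). Slco1a4, an organic anion transporter of the blood-brain barrier, gave 1195 in SVZ and 90.7 in VM (at least 9.79-fold higher). Etfbkmt, Meis2, Pdgfb and Acsbg1 completed the brightest 10 of this kind, at 917 to 1250.3 in SVZ, and each was at least 7-fold higher. The second probe set of Pdgfb read 175.4 in SVZ and 23.9 in VM. Its log2 difference of 0.52 is thus a minimum, as is the 3.17 of the first.

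On the low side the genes with the widest measured gap encoded secreted and matrix proteins for the most part. Col3a1, a fibrillar collagen, gave 176 in SVZ and 9394 in VM (53.3-fold lower). Igfbp4, an inhibitor of insulin-like growth factors, gave 278 in SVZ and 8156 in VM (29.3-fold lower), and all 5 of its other probe sets were lower too, with log2 differences of -5.65 to -2.21. Thbd, the thrombin receptor thrombomodulin, gave 189 in SVZ and 5382 in VM (28.5-fold lower). In each the SVZ signal was not far above the floor and the VM signal far above it. Lox, which cross-links collagen, gave 655 in SVZ and 10067 in VM (15.4-fold lower). Lgals9, a galectin that binds immune receptors, gave 209.7 in SVZ and 2815 in VM (13.4-fold lower). Rnase4, a secreted ribonuclease, gave 185 in SVZ and 2632 in VM (14.2-fold lower). Thbs2, Ifitm1, Mmp2, Efemp1, Cxcl5, Itm2a, Pcolce, Fbln1 and P4ha2 lay between -4.20 and -3.23 on the log2 scale.

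Of the genes read above the floor in VM alone, Dcn, the small proteoglycan decorin, gave 63.9 in SVZ and 6319.8 in VM (at least 51.8-fold lower). Apod, a lipid carrier of the lipocalin family, gave 43 in SVZ and 4502 in VM (at least 36.9-fold lower). Cavin2, a coat protein of caveolae, gave 111 in SVZ and 4112 in VM (at least 33.7-fold lower). Decorin and Apod are strongly made by meningeal and other fibroblasts. Smoc2, a matricellular protein, gave 44.5 in SVZ and 3874 in VM (at least 31.7-fold lower). Vnn1, an enzyme that releases pantothenic acid, gave 79 in SVZ and 2644 in VM (at least 21.7-fold lower). Mmp13, a collagenase, gave 18.5 in SVZ and 2174 in VM (at least 17.8-fold lower). Foxd1, Crct1, Serpinb6b and Zic1 were also among the brightest 10, with VM signals of 1793 to 3053.

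Against this background, lists of genes with a common role were described by their counts and medians; over all compared genes the median was 0.03 and the shares called 5.93% higher and 5.41% lower. The lists were chosen with earlier results of these data known.

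**Figure D2:**
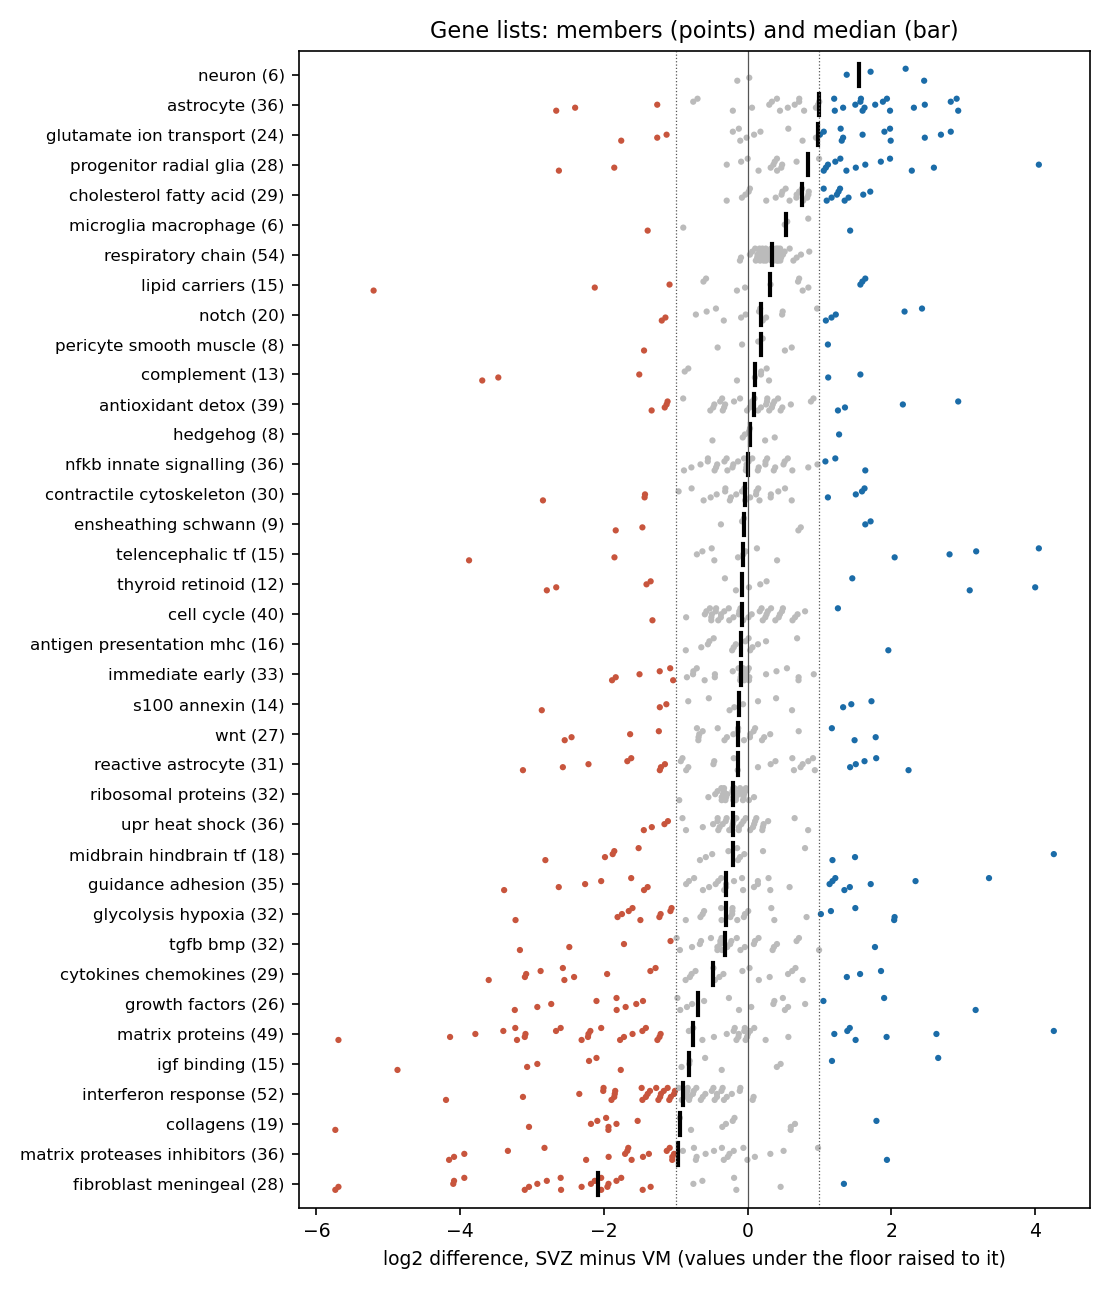
log2 difference in signal, SVZ minus VM, of the members of each gene list with 6 or more compared members (their number in brackets); points are genes, blue at least 2-fold higher and red at least 2-fold lower in SVZ, and bars are list medians. Neuronal, astrocyte, glutamate and ion handling, progenitor and cholesterol genes have the highest medians, and fibroblast, matrix protease, collagen and interferon genes the lowest. These medians cover compared members only, for the neuronal list 6 of 27. With all members kept, the neuronal median and the glutamate and ion median are 0.00.

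Astrocyte genes were higher in the SVZ culture. Of 44 markers on the array 36 were compared, 17 of them at least 2-fold higher and 3 lower, with a median of 0.99; the other 8 were below the floor in both cultures. Gfap, the astrocyte intermediate filament, gave 3112 in SVZ and 1007 in VM (3.09-fold higher). Aldh1l1, a folate enzyme, gave 5106 in SVZ and 1711 in VM (2.98-fold higher). No other probe set of Aldh1l1 was above the floor in either culture. The mean over its probe sets, where those below the floor in both count as no difference, was 0.79 on the log2 scale. Aqp4, the water channel of astrocyte endfeet, gave 4916 in SVZ and 1956 in VM (2.51-fold higher). By these probe sets the classical markers differed by 2 to 4 times, less than the most divergent members. Acsbg1, an acyl-CoA synthetase, gave 917 in SVZ and 61.9 in VM (at least 7.51-fold higher). Mlc1, a membrane protein of endfeet, gave 2455 in SVZ and 444 in VM (5.53-fold higher). Acsl6, an acyl-CoA synthetase for polyunsaturated fatty acids, gave 607 in SVZ and 62.8 in VM (at least 4.97-fold higher). The 3 members on the other side were Gja1, Dio2 and Pla2g7. Gja1, the gap junction protein connexin 43, gave 2505 in SVZ and 5988 in VM (2.39-fold lower), and its 5 other probe sets were lower as well, with log2 differences of -2.07 to -0.21. Dio2, which activates thyroid hormone, gave 27.6 in SVZ and 773 in VM (at least 6.33-fold lower). Pla2g7, a lipase that inactivates platelet-activating factor, gave 90.3 in SVZ and 644 in VM (at least 5.28-fold lower). Vim, the intermediate filament of immature glia, was within 0.5 at 20416 in SVZ and 16336 in VM.

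The list of glutamate, potassium and water handling had a similar split. It shares members with the astrocyte list, among them Kcnj10, Mlc1, Slc1a3 and Gja1. Of 24 compared genes 12 were higher and 3 lower (median 0.98, and 0.76 without genes that stand in several lists). Kcnj10, the inward rectifier Kir4.1 that buffers potassium, gave 2667 in SVZ and 376 in VM (7.1-fold higher). Slc1a3, the glutamate transporter GLAST, gave 2533 in SVZ and 641 in VM (3.95-fold higher). Atp1b1, a subunit of the sodium pump, gave 5004 in SVZ and 1337 in VM (3.74-fold higher). All 3 lay above the floor in both cultures. Slc38a3, a glutamine transporter, gave 564 in SVZ and 142 in VM (3.98-fold higher). Glul, glutamine synthetase, was just under the limit with 3356 in SVZ and 1736 in VM (log2 difference 0.95). Kcnk1, a leak potassium channel, gave 788 in SVZ and 26.6 in VM (at least 6.46-fold higher). Its other probe set read 186.2 in SVZ and 13.2 in VM, a log2 difference of at least 0.61. Both connexins called here went the other way: beside Gja1, Gjb2 gave 88.3 in SVZ and 413 in VM (at least 3.38-fold lower). Slc7a11, the cystine-glutamate exchanger, gave 164 in SVZ and 359 in VM (2.18-fold lower). Counted over all members, those below the floor included, the astrocyte median was 0.72 and that of this list 0.00.

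Progenitor and radial glial genes were also higher in SVZ: 13 of 28 compared genes were at least 2-fold higher and 2 lower (median 0.84, and 0.41 over all members). Fabp7, the fatty acid-binding protein of radial glia, gave 14077 in SVZ and 4522 in VM (3.11-fold higher). Prom1, the stem cell antigen prominin, gave 1624 in SVZ and 333 in VM (4.88-fold higher). Msi1, an RNA-binding protein of neural progenitors, gave 1337 in SVZ and 369.7 in VM (3.62-fold higher). Nes, the progenitor filament nestin, was on the same side with 1219 in SVZ and 429 in VM (2.84-fold higher). As means over their probe sets Msi1 (0.93) and Nes (0.80) were under 2-fold. Such a mean counts a probe set below the floor in both cultures as no difference. No other probe set of Msi1 was above the floor, and that of Nes above it differed by 0.90. Hmga2, a chromatin protein of fetal stem cells, gave 144 in SVZ and 890.1 in VM (6.17-fold lower), and Egfr, the epidermal growth factor receptor, was the other lower member at 117 in SVZ and 442 in VM (at least 3.62-fold lower), although its other probe set differed by only -0.35. Of 27 neuronal markers 21 were below the floor in both cultures. Those higher in SVZ were Gad1, which makes GABA (671 in SVZ and 26.2 in VM, at least 5.49-fold higher), the ubiquitin hydrolase Uchl1 (1491 in SVZ and 325 in VM, 4.59-fold higher), Stmn2 (2.6-fold higher) and Gap43 (at least 3.28-fold higher), while Tubb3 (76.4 in SVZ, 51.3 in VM) and Map2 (56.6 in SVZ, 23.1 in VM) stayed below the floor. Th, the rate-limiting enzyme of dopamine synthesis, read 5.1 in SVZ and 2.8 in VM. Olig1 gave 3805 in SVZ and 621 in VM (6.13-fold higher) and was the only oligodendrocyte-lineage gene called among 5 compared.

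Region-linked transcription factors were divided between the cultures, with opposite members within each list. Of 15 compared forebrain factors 4 were higher and 2 lower in SVZ (median -0.06). Beside Lhx2, Six3, a homeobox factor of the anterior forebrain, gave 857 in SVZ and 38 in VM (at least 7.02-fold higher). Meis2, a homeobox factor of the striatal and olfactory lineages, gave 1108 in SVZ and 69.6 in VM (at least 9.07-fold higher). Zbtb20, a zinc finger factor of hippocampal and glial development, gave 1709 in SVZ and 414 in VM (4.13-fold higher), with 1.94 from both other probe sets. The lower members were Zic1, a zinc finger factor of the dorsal neural tube and meninges (82.9 in SVZ and 1793 in VM, at least 14.7-fold lower), and the orphan receptor Nr2f2 (265 in SVZ and 957 in VM, 3.61-fold lower). In the midbrain and floor plate list, which also holds secreted proteins, 3 of 18 compared genes were higher and 5 lower (median -0.21). Foxa1, a winged-helix factor of the floor plate, gave 2.0 in SVZ and 483 in VM (at least 3.96-fold lower). En2, an engrailed factor of the midbrain-hindbrain region, gave 3.8 in SVZ and 442 in VM (at least 3.62-fold lower). Irx3, an Iroquois homeobox factor, gave 189 in SVZ and 1331 in VM (7.03-fold lower), and its relative Irx5 gave 33.3 in SVZ and 349 in VM (at least 2.86-fold lower). Zfp503 was 3.67-fold lower. The SVZ signals of Foxa1 and En2 were close to zero, which the floor turns into moderate bounds. The members higher in SVZ were Spon1, Ntn1, the guidance cue netrin-1 (4729.6 in SVZ and 2085 in VM, 2.27-fold higher), and the homeobox gene Nkx6-2 (344 in SVZ and 27.7 in VM, at least 2.82-fold higher). With the floor raised to the 70th percentile of all signals, Foxa1, En2, Irx5, Zfp503 and Nkx6-2 were under 2-fold. With the mean over all probe sets of a gene, Six3 (0.94) and Ntn1 (0.59) were under 2-fold as well. Their other probe sets were below the floor in both cultures and enter that mean as no difference. En1 was below the floor in both cultures, at 0.2 in SVZ and 96.6 in VM.

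**Figure D3:**
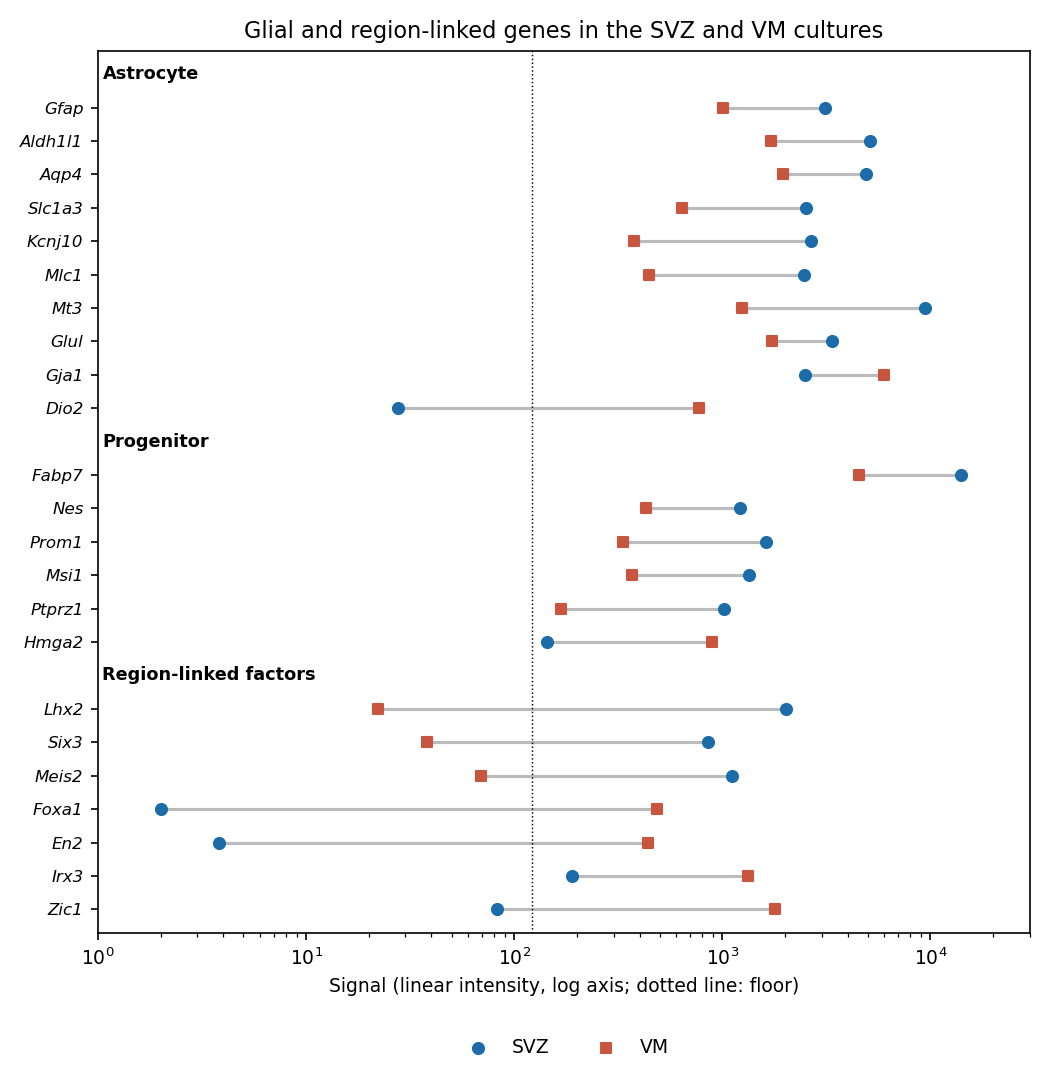
Signal on a log axis of astrocyte, progenitor and region-linked genes in the SVZ culture (blue circles) and the VM culture (red squares), 1 array each, with the floor of 122.1 as a dotted line. Most glial genes are higher in SVZ, Gja1, Dio2 and Hmga2 are lower, and the regional factors fall on both sides with 1 culture at or near the floor.

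Thyroid hormone and retinoic acid genes held large differences in both directions (of 12 compared, 3 higher and 4 lower). Crym and Dio2, described above, lay on opposite sides. So did the retinaldehyde dehydrogenases: Aldh1a1 was 8.52-fold higher in SVZ, whereas Aldh1a2, the enzyme of meninges and embryonic mesoderm, gave 55 in SVZ and 847 in VM (at least 6.93-fold lower). Rdh10, which makes retinaldehyde, gave 2074 in SVZ and 755 in VM (2.75-fold higher). Rxra, a retinoid receptor (117 in SVZ and 324 in VM, at least 2.65-fold lower), and Crabp2, which carries retinoic acid to the nucleus (127 in SVZ and 322 in VM, 2.55-fold lower), were on the low side.

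Genes of cholesterol and fatty acid synthesis were higher in SVZ as a group. Of 29 compared genes 26 lay above zero, 10 were at least 2-fold higher and 0 lower, with a median of 0.76. Scd1, a stearoyl-CoA desaturase, gave 1889.7 in SVZ and 579 in VM (3.27-fold higher). Fads2, a desaturase of polyunsaturated fatty acids, gave 1553 in SVZ and 509 in VM (3.05-fold higher), and Fads1 was 2.44-fold higher. Msmo1, a sterol methyl oxidase, gave 1590.2 in SVZ and 601 in VM (2.65-fold higher). Fdft1, squalene synthase, gave 1401 in SVZ and 549 in VM (2.55-fold higher), and Nsdhl, a sterol dehydrogenase, was 2.4-fold higher. With the mean over probe sets Scd1 (0.85) and Fdft1 (0.70) were under 2-fold. Probe sets below the floor in both cultures count there as no difference. No other probe set of Scd1 was above the floor, and that of Fdft1 above it differed by 1.46. The sterol response element, searched as TCACNCCAC on both strands of the 250 bases before the gene start, was in 0 of the 5 higher members with an entry in the RefSeq promoter table (GRCm38.p6) and in 1.22% of all genes there; these letters are absent from those windows, and nothing more follows.

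Energy metabolism was divided. The 32 compared glycolysis and hypoxia genes had 5 members higher and 10 lower (median -0.30). Ldhb, the lactate dehydrogenase subunit of oxidative tissues, gave 9039.7 in SVZ and 2189 in VM (4.13-fold higher), and its 3 other probe sets differed by 2.42 to 2.67. Ldha, the subunit of glycolytic tissues, was on the other side with 3950.0 in SVZ and 8223 in VM (2.08-fold lower). Bnip3, a mitophagy gene induced by low oxygen, gave 966 in SVZ and 3039 in VM (3.15-fold lower). The lower members with the widest gaps include several that hypoxia is known to induce. P4ha2, a collagen prolyl hydroxylase, gave 157 in SVZ and 1471 in VM (9.38-fold lower). Slc16a3, the lactate exporter MCT4, gave 30.1 in SVZ and 428 in VM (at least 3.51-fold lower). Ero1a (3.36-fold lower), the oxygen sensor Egln3 (3.03-fold lower) and the peptide adrenomedullin, Adm (2.81-fold lower), were lower too. Ndrg1, a differentiation gene also induced by hypoxia, was higher instead, at 3803 in SVZ and 925 in VM (4.11-fold higher), with Aldoc (2.83-fold higher), Pfkm (2.23-fold higher) and Slc16a1 (2.03-fold higher) on its side. Respiratory chain subunits differed little but mostly in one direction: 52 of 54 lay above zero, none was 2-fold apart, and the median was 0.34. Cox6a1 gave 9880.1 in SVZ and 8623 in VM, and Atp5b 7772 in SVZ and 5911 in VM. Ribosomal proteins were on the other side by a smaller amount, 30 of 32 below zero with a median of -0.20; Rps29 gave 13229 in SVZ and 13691 in VM, and Rps28 12806 in SVZ and 13776 in VM. These counts come from the same pair of arrays, and genes are not independent observations.

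Fibroblast and meningeal markers were lower in SVZ, with the lowest median of the lists. Of 34 named on the array 28 were compared, 22 were at least 2-fold lower and 1 was higher, with a median of -2.08. The summed signal of the 34 was 37547 in SVZ and 94063 in VM, and 19 of them were above the floor in SVZ against 28 in VM. Foxd1, a forkhead factor of mesenchyme, gave 17.1 in SVZ and 2088 in VM (at least 17.1-fold lower). Foxc1, a forkhead factor of the meninges, gave 338 in SVZ and 2041 in VM (6.05-fold lower). Lum, the proteoglycan lumican, gave 17.9 in SVZ and 1048 in VM (at least 8.58-fold lower). Neither Foxd1 nor Lum was above the floor in SVZ. Col1a1, the main chain of type I collagen, was still well above the floor in both, at 1868 in SVZ and 7145 in VM (3.82-fold lower). The part of fibroblasts in the other differences between the cultures was not tested. Islr was the member higher in SVZ, at 5941 in SVZ and 2346 in VM (2.53-fold higher).

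Matrix genes, many of which fibroblasts make, were lower alongside those markers. Of 19 compared collagen genes 9 were lower and 1 higher (median -0.94), of 49 other matrix proteins 23 lower and 7 higher (median -0.76), and of 36 proteases and inhibitors 18 lower and 1 higher (median -0.96). Over all members, those below the floor included, the medians were -0.09 for collagens, -0.14 for matrix proteins and -0.71 for proteases. Without genes that stand in several lists the collagen median was -0.33 and the matrix protein median -0.19. Beside Col3a1, Col6a2, a chain of microfibrillar type VI collagen, gave 124 in SVZ and 1024 in VM (8.24-fold lower), and Col6a1 was 4.53-fold lower. Col18a1, the source of endostatin, gave 374 in SVZ and 1593 in VM (4.26-fold lower), Col5a1 was 3.91-fold lower and the basement membrane chain Col4a2 3.83-fold lower. Col4a6, another basement membrane chain, was the collagen higher in SVZ, with 423 in SVZ and 111 in VM (at least 3.47-fold higher). Thbs2, an inhibitor of vessel growth, gave 282 in SVZ and 4982 in VM (17.6-fold lower). Efemp1, a fibulin, gave 352 in SVZ and 4865 in VM (13.8-fold lower), and Fbln1 was 9.4-fold lower. Lamb1, a laminin chain, gave 96.7 in SVZ and 1129 in VM (at least 9.25-fold lower), and Tgfbi, an integrin-binding protein, was at least 10.6-fold lower.

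The matrix proteins higher in SVZ were those of neural tissue in part. Ncan, neurocan, gave 2217 in SVZ and 359 in VM (6.18-fold higher). Bcan, brevican, its relative in perineuronal matrix, gave 372 in SVZ and 131 in VM (2.83-fold higher). Gpc4, a glypican that astrocytes secrete to promote synapses, gave 4723 in SVZ and 1762 in VM (2.68-fold higher). Fmod, the collagen-binding fibromodulin, gave 1918 in SVZ and 733 in VM (2.62-fold higher), and the laminin chain Lama5 was 3.82-fold higher. Among the proteases, Mmp2, a gelatinase, gave 154 in SVZ and 2613 in VM (17-fold lower). Pcolce, which speeds the trimming of procollagen, gave 419 in SVZ and 4226 in VM (10.1-fold lower). Ctsk, cathepsin K, gave 23.5 in SVZ and 866 in VM (at least 7.09-fold lower). Adamts5, an aggrecanase, was 4.75-fold lower. Htra1, a secreted serine protease, was the 1 member higher in SVZ, at 2190.4 in SVZ and 571 in VM (3.84-fold higher).

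Growth factors and their modulators differed one by one. Of 26 compared ligands 3 were higher and 9 lower in SVZ (median -0.69, and 0.00 over all members). Fgf7, a fibroblast growth factor of mesenchyme, gave 49.6 in SVZ and 1153 in VM (at least 9.45-fold lower). Igf2, insulin-like growth factor 2, gave 24.6 in SVZ and 928 in VM (at least 7.6-fold lower). Penk, the enkephalin precursor, gave 65.3 in SVZ and 812 in VM (at least 6.65-fold lower). Igf1 gave 119.7 in SVZ and 524 in VM (at least 4.3-fold lower). Its other probe sets were also under the floor in SVZ, with minimum log2 differences of -0.71 and -0.79. The vessel growth factors Vegfd (at least 3.54-fold lower) and Pgf (at least 3.54-fold lower) were also lower. Pdgfb, a platelet-derived growth factor chain, gave 1102 in SVZ and 72.5 in VM (at least 9.02-fold higher). Pdgfa was 2.08-fold higher and the intracellular factor Fgf13 at least 3.73-fold higher. By its other probe set Pdgfa differed by only 0.52 on the log2 scale (590 in SVZ, 410.4 in VM). The insulin-like growth factor binding proteins split: Igfbp3 gave 6151 in SVZ and 978 in VM (6.29-fold higher), while Igfbp4 was 29.3-fold lower and Igfbp6 at least 4.62-fold lower. Grb10, an inhibitor of insulin receptors, was 8.38-fold lower by its brightest probe set. Another read 11.7 in SVZ and 152.9 in VM, so its log2 difference of -0.32 is only a minimum. The protease Pappa, which cleaves Igfbp4, was 3.4-fold lower and the receptor substrate Irs2 at least 2.26-fold higher.

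Developmental signalling lists had medians between -0.32 for TGF-beta and BMP and 0.19 for Notch. In the TGF-beta and BMP list (32 compared, 1 higher, 4 lower) the ligand Bmp4 gave 195 in SVZ and 1752 in VM (8.99-fold lower). The activin chain Inhba was 5.58-fold lower, Ltbp2 3.29-fold lower and the receptor Tgfbr2 2.1-fold lower, while Bambi, a decoy receptor, was 3.42-fold higher. In the Wnt list (27 compared, 3 higher, 4 lower) Wif1, a secreted inhibitor, gave 7.7 in SVZ and 713 in VM (at least 5.84-fold lower). Wnt7a, a ligand of the forebrain, gave 420.1 in SVZ and 14 in VM (at least 3.44-fold higher). Sfrp1, another secreted inhibitor, was 2.81-fold higher, Dkk3 2.25-fold higher, Ccn4 5.46-fold lower, the agonist Rspo2 at least 3.1-fold lower and Sfrp4 at least 2.35-fold lower. By its other probe set Dkk3 differed by only 0.37 on the log2 scale (525.6 in SVZ, 407.9 in VM). Secreted inhibitors thus stood on both sides. In the Notch list (20 compared, 5 higher, 2 lower) the receptor Notch1 was 2.13-fold higher, the ligand-like Dner at least 5.38-fold higher, Dtx1 4.55-fold higher, the target Hey1 2.34-fold higher and the glycosyltransferase Lfng 2.25-fold higher, whereas the ligand Jag1 was at least 2.21-fold lower and the nuclear effector Rbpj 2.29-fold lower. Among 8 compared Hedgehog genes the co-receptor Gas1 alone was 2-fold apart, at 3333 in SVZ and 1379 in VM (2.42-fold higher).

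Guidance and adhesion molecules stood on both sides, 8 of 35 compared being higher and 7 lower. On the high side beside Nrcam, Cadm1, a synaptic adhesion molecule, gave 1972 in SVZ and 390.3 in VM (5.05-fold higher). Cdh2, N-cadherin, gave 4692 in SVZ and 1749.7 in VM (2.68-fold higher). Vcam1, an adhesion molecule of SVZ stem cells, gave 7483 in SVZ and 3210.5 in VM (2.33-fold higher). Astn1, on which neurons migrate along glia, was at least 3.28-fold higher and the semaphorin Sema3b 2.54-fold higher. On the low side Alcam, an adhesion molecule of growing axons, gave 122 in SVZ and 1278 in VM (at least 10.5-fold lower). Cdh11, a cadherin of mesenchyme, gave 606 in SVZ and 2487 in VM (4.11-fold lower). Pcdh7 (at least 6.18-fold lower), Sema3c (4.79-fold lower), Sema3e (at least 3.07-fold lower) and the semaphorin receptor Nrp1 (2.72-fold lower) were lower too. The other probe set of Sema3e read 33.4 in SVZ and 133 in VM, so its log2 difference of -0.12 is only a minimum.

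Interferon-induced genes were lower in SVZ nearly throughout. Of 52 compared genes 50 lay below zero, 24 were at least 2-fold lower and 0 higher, with a median of -0.90. Ifitm1, a membrane protein that restricts virus entry, gave 282 in SVZ and 5166 in VM (18.3-fold lower). Iigp1, an interferon-inducible GTPase, gave 339.9 in SVZ and 2967 in VM (8.73-fold lower). Zbp1, a sensor of Z-form nucleic acids, gave 366 in SVZ and 1857 in VM (5.07-fold lower). Several members were nevertheless well above the floor in both cultures. Ifit1, an antiviral protein that binds foreign RNA, gave 3388 in SVZ and 8007 in VM (2.36-fold lower), and Ifit3 4107 in SVZ and 8274 in VM (2.01-fold lower). Irgm1, a GTPase of autophagy, gave 1801 in SVZ and 4968 in VM (2.76-fold lower), and Irgm2 was 3.62-fold lower. Gbp2, a guanylate-binding protein, gave 1702 in SVZ and 3925 in VM (2.31-fold lower). The RNA sensor Dhx58 (4.01-fold lower), Ifi204 (4.02-fold lower) and the antiviral GTPase Mx2 (at least 3.72-fold lower) were among the lower members, and members of such families have similar sequences, so their probe sets may share signal. Ifitm3, a close relative of Ifitm1, was near equal at 14768 in SVZ and 14064 in VM. The interferon genes Ifnb1 (14.3 in SVZ, 39.8 in VM) and Ifng (9.1 in SVZ, 0.6 in VM), looked up after the list was seen, were below the floor in both. Antigen presentation genes did not follow: of 16 compared, 0 were 2-fold lower and 1, the class II chain Cd74, was higher, at 475 in SVZ and 64.2 in VM (at least 3.89-fold higher).

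The interferon-stimulated response element is the DNA site bound by the STAT and IRF factors that interferons activate. It was searched as 2 copies of GAAA with any 2 bases between them, or 2 copies of TTTC so spaced for the other strand. The search covered the 250 bases before the gene start in RefSeq promoters (GRCm38.p6). Matches of the same form can overlap each other. Of the 24 lower members 17 had a promoter entry and 9 held a match (52.9%), against 6 of 21 among the other compared members (28.6%) and 3.46% of all genes in the table. A match is a description of the sequence and not a site shown to be used. Ifitm1, Zbp1, Ifi204, Dhx58 and Mx2, with wider gaps than the genes printed below, had no match or no promoter entry. Oas1a, another lower member, held a match and is not printed. The 4 promoters printed here belong to genes at least 2-fold lower in SVZ and show where the matches, in capitals, lie relative to the gene start at the right-hand end; each is written 5′ to 3′ on the gene's strand.
Irgm2, chr11:58214727-58214976, + strand: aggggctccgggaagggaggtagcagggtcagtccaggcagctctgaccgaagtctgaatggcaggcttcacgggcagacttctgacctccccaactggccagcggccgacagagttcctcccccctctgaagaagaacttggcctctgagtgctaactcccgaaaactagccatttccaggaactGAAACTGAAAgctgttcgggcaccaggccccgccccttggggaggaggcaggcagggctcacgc
Irgm1, chr11:48871421-48871670, - strand: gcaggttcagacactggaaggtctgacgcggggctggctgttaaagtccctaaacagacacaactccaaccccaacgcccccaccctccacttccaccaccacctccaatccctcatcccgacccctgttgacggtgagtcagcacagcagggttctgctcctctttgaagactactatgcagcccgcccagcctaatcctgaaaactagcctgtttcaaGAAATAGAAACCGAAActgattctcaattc
Ifit1, chr19:34640639-34640888, + strand: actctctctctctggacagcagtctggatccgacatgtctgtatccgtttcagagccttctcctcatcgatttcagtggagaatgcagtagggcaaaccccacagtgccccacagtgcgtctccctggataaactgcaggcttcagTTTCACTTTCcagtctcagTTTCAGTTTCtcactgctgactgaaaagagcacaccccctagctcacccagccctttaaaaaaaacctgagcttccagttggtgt
Gbp2, chr3:142620413-142620662, + strand: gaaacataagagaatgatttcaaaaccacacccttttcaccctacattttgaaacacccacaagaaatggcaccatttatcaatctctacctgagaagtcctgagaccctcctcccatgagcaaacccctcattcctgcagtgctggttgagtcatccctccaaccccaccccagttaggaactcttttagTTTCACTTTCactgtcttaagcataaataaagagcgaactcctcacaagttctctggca
Counted from the gene start, the match begins at -64 in Irgm2 and at -59 in Gbp2. In Irgm1 a pair of overlapping matches begins at -30 and -24, and in Ifit1 a pair begins at -104 and -85.

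Cytokine and chemokine genes were lower in SVZ in larger number than they were higher, 10 against 3 of 29 compared (median -0.48, and 0.00 over all members). Il6, the interleukin that drives the acute phase response, gave 649 in SVZ and 5495 in VM (8.46-fold lower). Cxcl5, a chemokine for neutrophils, gave 319 in SVZ and 3878 in VM (12.1-fold lower). Ccl8, a chemokine for monocytes, gave 209.7 in SVZ and 1797 in VM (8.57-fold lower). All 3 were above the floor in both cultures. Ptgs2, the inducible prostaglandin synthase, gave 1029 in SVZ and 6113 in VM (5.94-fold lower), and Ptges, which makes prostaglandin E2, was at least 5.85-fold lower. Saa3, an acute phase protein, gave 887 in SVZ and 6533 in VM (7.36-fold lower). The 3 members higher in SVZ were also chemokines. Cxcl2, for neutrophils, gave 2415 in SVZ and 816 in VM (2.96-fold higher). Ccl20, for T helper cells, gave 442 in SVZ and 84.6 in VM (at least 3.62-fold higher), and Cxcl14 was 2.6-fold higher. In the list of NF-kappaB and innate signalling none of 36 compared genes was 2-fold lower and 3 were higher, the receptor Tlr2 (3.11-fold higher), the kinase Map3k8 (2.12-fold higher) and Vcam1.

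**Figure D4:**
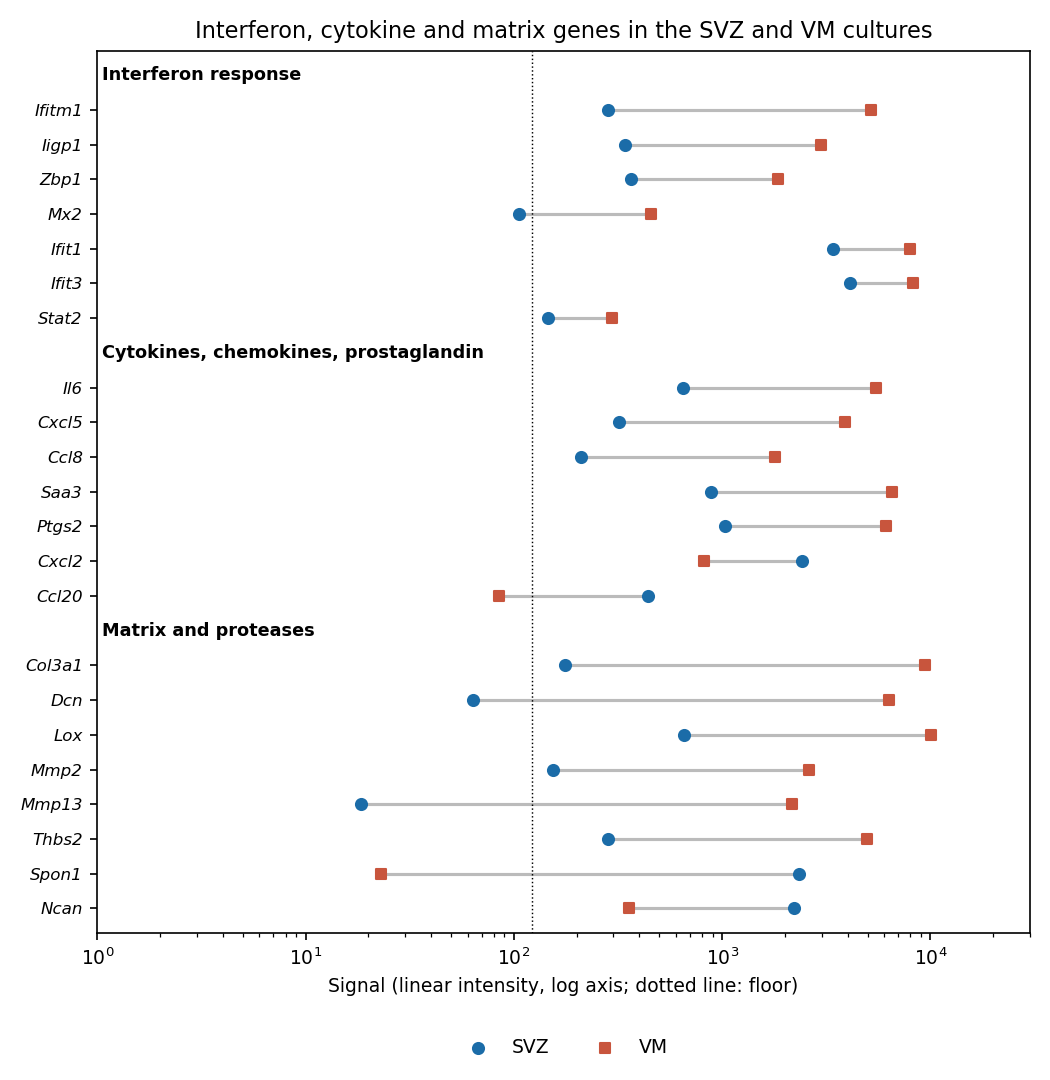
Signal on a log axis of interferon-induced, cytokine and matrix genes in the SVZ culture (blue circles) and the VM culture (red squares), 1 array each, with the floor of 122.1 as a dotted line. All 7 interferon genes shown are lower in SVZ, while Cxcl2, Ccl20, Spon1 and Ncan are higher.

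Complement genes (13 compared, 2 higher, 3 lower) and reactive astrocyte genes were divided. C4bp, which restrains complement, gave 3.6 in SVZ and 1579 in VM (at least 12.9-fold lower). Masp1, a protease of the lectin pathway, gave 119 in SVZ and 1352 in VM (at least 11.1-fold lower), and C2 was at least 2.84-fold lower. Clu, the chaperone clusterin that also blocks the terminal complex, gave 7353 in SVZ and 2477 in VM (2.97-fold higher), and Cd59a, another inhibitor of that complex, was 2.18-fold higher. Of 31 compared reactive astrocyte genes 5 were higher and 8 lower. Steap4, a metalloreductase, gave 4724 in SVZ and 1000.0 in VM (4.72-fold higher), and the protease inhibitor Serpina3n was 2.69-fold higher and the transglutaminase Tgm1 at least 3.46-fold higher. Timp1, an inhibitor of metalloproteases, gave 2515 in SVZ and 8024 in VM (3.19-fold lower). The elastic fibre protein Fbln5 (4.64-fold lower), Tm4sf1 (3.07-fold lower) and S100a10 (2.33-fold lower) were lower with it.

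Microglial and endothelial markers were mostly below the floor, while part of the pericyte, ensheathing cell and choroid plexus lists was above it (8 of 16, 9 of 17 and 5 of 11 compared). Of 34 microglia and macrophage markers 28 were below the floor in both cultures, among them Csf1r (55.6 in SVZ, 90.9 in VM), Aif1 (17.4 in SVZ, 8.5 in VM) and Ptprc (13.5 in SVZ, 14.9 in VM). Lgals3, which reactive glia also express, was higher at 7676 in SVZ and 2854 in VM (2.69-fold higher), and Cd53 was at least 2.62-fold lower. The summed signal of the microglial list was 9429 in SVZ, most of it from Lgals3, and 4686 in VM. Of 15 endothelial markers 3 were compared: Slco1a4 was at least 9.79-fold higher, and Eng (2.67-fold lower) and Cdh5 (at least 2.08-fold lower) lower. Among pericyte and smooth muscle markers Cnn1 was 2.17-fold higher and Pdgfrb, the receptor of pericytes and fibroblasts, 2.71-fold lower. Foxj1, the factor of motile cilia, gave 919 in SVZ and 304 in VM (3.02-fold higher). The choroid plexus gene Sostdc1 was at least 3.45-fold higher, and of the ensheathing and Schwann cell list Egr2 was 3.57-fold lower and Fbln2 2.76-fold lower beside Fabp7 and Gap43 on the high side. Xist was below the floor in both cultures (11 in SVZ, 18.3 in VM) and the Y-linked gene Eif2s3y above it in both (219 in SVZ, 252 in VM).

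Proliferation genes were close between the cultures. Of 40 compared cell cycle genes 38 were within 2-fold (median -0.08). Ccnd1, cyclin D1, was the higher member with 10374 in SVZ and 4340.5 in VM (2.39-fold higher), and the mitotic kinesin Kif20a the lower (2.5-fold lower). In the stress and early response lists the members 2-fold apart were all lower in SVZ. Of 36 compared chaperone and unfolded protein genes 4 were lower: Hspa1b (2.72-fold lower), Pdia6 (2.52-fold lower), Edem1 (2.23-fold lower) and Xbp1 (2.16-fold lower). Of 33 immediate early genes 6 were lower. Among them Ccn2, a matricellular protein, gave 3178 in SVZ and 11747 in VM (3.7-fold lower), and Klf4 was 2.84-fold lower, Ier5 2.33-fold lower, Spry1 2.11-fold lower and Nr4a1 2.05-fold lower. Antioxidant genes were split evenly, with Gstm1, a glutathione transferase, at 5329.8 in SVZ and 1192 in VM (4.47-fold higher), Gsr 2.56-fold higher and Gpx3 2.39-fold higher, against Gpx7 2.52-fold lower, Gstm2 2.22-fold lower and Nqo1 at least 2.16-fold lower. Among calcium-binding proteins Anxa1, annexin A1, gave 1292 in SVZ and 9402 in VM (7.28-fold lower), Anxa8 was at least 2.19-fold lower, and S100a1 (3.3-fold higher), S100a13 (2.51-fold higher) and S100a16 (2.72-fold higher) were higher. The other probe set of S100a1 differed by only 0.60 on the log2 scale (325.6 in SVZ, 215 in VM). In the cytoskeletal list the smooth muscle actin Actg2 was at least 7.2-fold lower, Zyx 2.69-fold lower and Csrp2 2.7-fold lower, while Tagln2 was 3.02-fold higher. The other probe set of Tagln2 differed by only 0.39 on the log2 scale (1431.4 in SVZ, 1092.7 in VM). Among lipid carriers the cholesterol-esterifying enzyme Lcat was at least 3.03-fold higher, and Ptgds (4.37-fold lower) and the receptor Vldlr (2.12-fold lower) stood with Apod on the low side.

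The genes that read highest in both cultures while differing by less than 0.5 on the log2 scale were Vim, the iron store Fth1, the galectin Lgals1, Tpt1, the thymosin Tmsb4x, the elongation factor Eef1a1, Ifitm3, the ferroxidase ceruloplasmin (Cp), Sparc and Actb. Sparc, a matrix protein that astrocytes release, gave 13865 in SVZ and 13532 in VM, a difference of 0.04. Lgals1 gave 15425 in SVZ and 15376 in VM. Among the matrix genes, then, this abundant one was near equal.

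Other probe sets of the called genes gave the same direction in most cases. Of 160 genes higher in SVZ with another probe set above the floor, 156 had it on the same side and 92 at least 2-fold so. On the low side the numbers were 128 and 81 of 129. The 5 exceptions, named after their values were seen, were Arhgap12, Ezr, Ints6 and Pdlim7 on the high side and Parva on the low side. Ezr, counted above among the astrocyte markers called higher, differed by 1.21 in its brightest probe set and by -0.30 in another. Of the 232 called genes that the rule for named genes picked, 60 were under 2-fold with the floor at the 70th percentile, 31 with the mean over all probe sets of a gene and 27 with a pseudocount in place of the floor. Those lost under the 70th percentile floor have low signals and include Acsl6, Pla2g7, Egfr, Gad1, Gap43, Slc38a3, Gjb2, Slc7a11, Dhx58, Mx2, Ccl20, Ptges, Igf1, Wif1, Wnt7a and Dner beside the regional genes given above. Those lost with the mean over probe sets, beside the genes given with their values above, include Aldoc, Notch1, Jag1, Tgfbr2, Gas1, Pdgfa, Dkk3, Dhx58, Egfr, Eng, Cdh5, Tagln2, Xbp1 and Pdia6, and those lost with the pseudocount include Slc7a11, Rxra, Crabp2, Bcan, Cxcl14, Map3k8, Rbpj, Sfrp4, Kif20a, Nqo1 and Vldlr. The mean over probe sets counts a probe set below the floor in both cultures as no difference. For Aldoc, Jag1, Tgfbr2, Dhx58, Eng, Cdh5 and Pdia6 no other probe set was above the floor. Probe sets of a gene share the RNA sample, so comparing them checks the measurement and not the culture.

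The OB and HIP arrays were set beside the pair for the genes called. Of the 435 genes higher in SVZ, both OB and HIP lay nearer to VM than to SVZ on the log2 scale in 140, and both lay nearer to SVZ in 74. Of the 397 genes lower in SVZ, both lay nearer to SVZ in 146 and nearer to VM in 102. When the remaining arrays split, HIP was the one nearer to SVZ in 210 of the higher and 132 of the lower genes, and OB in 11 and 17. Crym, for example, read 103 in OB and 65.7 in HIP, closer to the VM value of 255. Il6 read 42 in OB and 50.4 in HIP, closer to the SVZ value of 649. For both genes OB and HIP were under the floor, and so below SVZ and VM alike. These are positions of single arrays and carry no error.

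**Figure D5:**
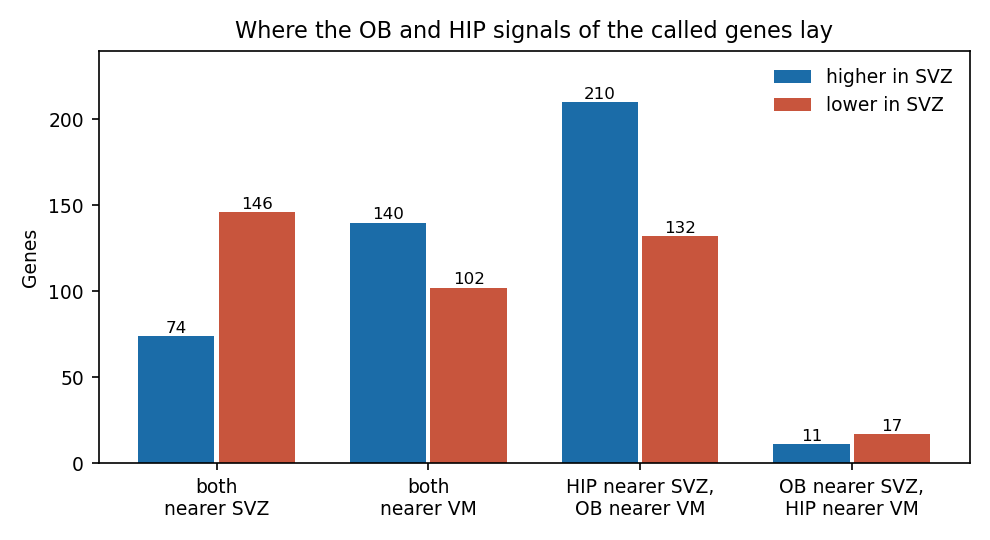
Number of genes at least 2-fold higher (blue) or lower (red) in SVZ than in VM, by whether the OB and HIP signals of the gene lay nearer to SVZ or to VM on the log2 scale. Among genes on which the remaining arrays split, HIP was the one nearer to SVZ in 210 and 132 genes, and OB in 11 and 17.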

How the data were processed

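RNA from 1 SVZ and 1 VM astrocyte culture was hybridised to 1 Affymetrix mouse array each, starting from 2 ug of total RNA per the labels' protocols. The deposited values are linear signal intensities per probe set; the authors used GCOS 1.4 per the submitters' processing notes, while the sources used here do not state the signal algorithm or scaling target. Of 22690 probe sets, 64 are controls, 20380 carried 1 gene symbol, 691 several and 1555 none, and 20351 were matched to RefSeq by gene ID. Signals under the median of all signals, 122.1, were raised to it, log2 was taken, and each gene was read from the probe set of highest mean over the 4 arrays. The difference is SVZ minus VM, and a call is 2-fold or more. No test was run. Python 3.11.15, numpy 2.4.6, pandas 2.3.3 and matplotlib 3.10.9 were used, and the counting was checked on simulated signals of bright genes.

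Named genes are the 15 largest differences each way measured on both arrays, the 10 brightest bounds each way, the 10 highest signals under 0.5 apart, up to 6 called members of each list each way (2 where none is called) and a fixed set of markers. The rule did not pick Col1a1, Foxc1, Ldha, Ifit3, Irgm1, Irgm2, Gbp2, Map2, Tubb3, Csf1r, Aif1, Ptprc, Ifnb1, Ifng or the genes with an opposed probe set; these were added once their values were known. The members and lists were chosen with earlier results of these data known. Alternatives were other floors, a pseudocount, other rules for probe sets, other scalings and other list summaries.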

Additional observations from a re-analysis of the deposited data

How the results depend on the processing

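No paired analysis was possible because the SVZ and VM groups share 1 replicate number and hold 1 array each, so no replicate could be left out either. A value is called moved where it changed by more than the probe-set scatter, an SD of 0.18 on the log2 scale, and a count where it changed by more than 1.5 times. With the floor on low signals at the 70th percentile of all signals in place of the median, 223 genes were at least 2-fold higher and 213 lower in SVZ. At the 30th percentile the counts were 724 and 680. The floor sets how many genes are compared, 4811 and 9436, which accounts for part of these differences by construction. Under a pseudocount (311 higher, 331 lower), the mean of all probe sets (319 and 321), a probe set chosen on the SVZ and VM arrays (434 and 397), quantile normalization (435 and 400), median scaling (404 and 418) and no filter (435 and 397) the counts stayed within 1.5 times. The counts without a filter could not change, since it adds only genes at the floor in both cultures, which have no difference. Median scaling put the median of all genes at -0.02. Calls higher in SVZ made up 48.4% to 52.3% of all calls across these settings. 6 values of 4 list medians changed sign: the endothelial median (-1.06) became 1.73 under the 70th percentile floor and 0.27 as a mean over members, the lipid carrier median (0.32) became -0.11 as a mean over members and -0.15 without genes of several lists, the oligodendrocyte median (0.80) became -1.09 under the 30th percentile floor and the pericyte median (0.18) became -0.42 without genes of several lists. The cause was not tested. Under the 70th percentile floor the list medians that moved were cell cycle 0.19, choroid plexus 0.34, collagen -1.67, cytokine -0.72, ependymal 0.68, fibroblast -1.51, growth factor -0.26, guidance -0.058, lipid carrier 0.00025, protease -0.59, microglial 0.84, neuronal 0.90, oligodendrocyte 1.58 and forebrain 0.69. At the 30th percentile they were choroid plexus -0.57, ependymal 0.11, glycolysis and hypoxia -0.48, growth factor -0.43, guidance -0.056, lipid carrier 0.62, microglial 0.11, midbrain -1.14 and neuronal 1.17. With log2(signal + floor) and no floor they were cholesterol 0.53, cytokine -0.69, fibroblast -1.87, protease -0.66, midbrain -0.54, neuronal 1.23 and oligodendrocyte 0.51. With the mean over all probe sets of a gene they were astrocyte 0.79, endothelial -0.53, glutamate and ion 0.70 and protease -0.74. The mean over members in place of the median gave choroid plexus 0.27, collagen -1.12, complement -0.52, cytokine -0.75, insulin-like growth factor -1.05, immediate early -0.31, matrix protein -0.94, microglial 0.18, neuronal 1.27, oligodendrocyte 0.99 and forebrain 0.29. Without genes that stand in several lists the medians were collagen -0.33, cytoskeletal -0.23, ensheathing and Schwann cell 0.71, fibroblast -1.11, glutamate and ion 0.76, matrix protein -0.19, midbrain -0.58, neuronal 1.79, progenitor 1.12, reactive astrocyte 0.52, forebrain -0.46 and thyroid and retinoid 0.18. With genes below the floor on both arrays kept at a difference of zero, medians moved to astrocyte 0.72, collagen -0.091, protease -0.71, matrix protein -0.14 and progenitor 0.41, and 28 of the 43 lists had a median of 0.00, of which 15 had moved by more than the scatter: cytokine, endothelial, ependymal, glutamate and ion, growth factor, guidance, lipid carrier, microglial, midbrain, neuronal, Notch, oligodendrocyte, pericyte, sex-linked and TGF-beta and BMP. The interferon, respiratory chain and ribosomal medians moved by less than the scatter in every setting run. Over the list summaries, counts and scatter, 359 values under an alternative stayed within the limit, 81 moved and 6 changed sign. None of the named genes at least 2-fold apart changed sign. For a given probe set a floor, a pseudocount, no filter or median scaling could not reverse so large a difference. Only a change of probe set or quantile normalization could have. Of the near-equal named genes 5 crossed zero: under quantile normalization Fth1 was -0.093, Eef1a1 -0.062, Ifitm3 -0.082, Lgals1 -0.15 and Sparc -0.087, under median scaling Lgals1 was -0.041 and Sparc -0.011, and with the mean of all probe sets Sparc was -0.077. With 1 array per region no difference has a biological error, and genes near the floor have only a bound.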

Other observations

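Probe sets with several gene symbols, or with none in the annotation used here, were left out of the gene counts. Of these, 897 were above the floor in at least 1 of the 2 cultures, 45 were at least 2-fold higher in SVZ and 43 at least 2-fold lower.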
